A study of Oryza sativa with 18 samples.

Results

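The genes described here are the abundantly transcribed ribosomal protein genes of the rice leaf. They were chosen by annotation and by level: a gene was taken where its annotation contains the words ribosomal protein and names no kinase or methyltransferase, and where any of its 9 FPKM values reached 50. FPKM is the number of sequenced fragments for each kilobase of transcript, scaled to the fragments mapped in the library. This gave 184 of 39049 genes, out of 372 whose annotation carries the words. The level itself was used for the choice, so levels are given as a description. The difference between drought and control, and that between genotypes, was not used directly, but 46 of the 184 genes were at or above 50 in fewer than 9 columns and 4 of them in 1 column only. A gene of this kind enters through the columns in which it is high. Counts are therefore also given for the 169 genes whose mean over all 9 columns was at least 50.

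The leaves came from 3 rice genotypes at the tillering stage, the drought-tolerant introgression line H471, its tolerant donor parent P28 and its drought-sensitive recurrent parent HHZ. Plants in pots were sampled after 1 day of drought, at a soil water content of 15%, after 3 days, at 10%, and as well-watered controls. In the deposited values both libraries made from a genotype under a condition share 1 column, and RNA from independent replicates had been pooled before that. The 18 libraries thus give 9 columns, and every FPKM below is a value the authors pooled. No standard deviation or p-value can be put on a difference between 2 of them. H471 is 1 line carrying segments of P28 in HHZ, and what its columns show cannot be separated from that line.

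Ribosomal proteins are the protein part of the ribosome, which joins amino acids into proteins. A plant cell holds a ribosome of the cytosol, built of a 40S and a 60S subunit, and bacterial-type ribosomes in its chloroplasts and mitochondria, whose subunits are called 30S and 50S in the chloroplast. Most proteins of all of these are encoded in the nucleus, those of the cytosol usually by several near-identical gene copies, and in plants their transcript levels are known to follow growth, light and the hour of the day.

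The annotation, which describes the best match in Arabidopsis, states the ribosome for few of the genes: 3 carry 40S, 5 carry 60S, 6 carry a plastid or 30S or 50S name, and 170 state none. Family names allow a further division. Of the 184 genes, 85 belong to families or carry symbols of the cytosolic ribosome (such as S8e, L34e or the 60S acidic proteins) and 25 to those of organelle ribosomes (such as L17, L27 or the plastid-specific proteins). The names of another 67, called families of both kinds, do not tell the ribosomes apart, and 7 have annotations that also name another protein, an elongation factor or a protease adaptor. This division was written down after values had been seen, so counts within it are descriptions and were given no test of their own.

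The median of the genes' mean level was 118 FPKM. By group, the median was 112 FPKM for cytosolic families, 125 FPKM for organelle families, 124 FPKM for families of both kinds and 141 FPKM for genes that name another protein. The lowest mean level of any of the genes was 27.0 FPKM, in a cytosolic family, and the highest was 18623 FPKM. The threshold cut through families. Just inside it were LOC_Os03g29260 of the EF1B/S6 family, at most at 50.7 FPKM, LOC_Os06g16290 of the L7Ae family, at most at 53.0 FPKM, and LOC_Os08g10608, a match of the small-subunit gene S11-beta, at most at 53.9 FPKM. Just outside were LOC_Os03g59720 (L36), at most at 49.7 FPKM, LOC_Os04g52361, another match of S11-beta, at 48.6 FPKM, and LOC_Os02g49610 of the L7Ae family, at 48.2 FPKM.

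After 1 day of drought most genes of the cytosolic ribosome were lower than in the control in every genotype, while those of organelle ribosomes were on balance higher. limma, fitted to the 20568 genes that reached 1 FPKM in any column, called 22 of the 184 genes higher and 141 lower at an adjusted p under 0.05, against 27.4% of all tested genes called higher and 30.8% called lower. It takes the 3 genotypes as replicates, so its p-values measure the spread between genotypes. H471 derives from the other genotypes, so these replicates are not independent of each other. The median fitted difference in log2(FPKM + 1) was -0.71 for the 184 genes and -0.02 for all tested genes. Among the 169 genes with a mean level of at least 50, 20 were called higher and 129 lower. For 138 genes all 3 columns of day 1 lay below all 3 control columns and for 27 they lay above, against 32.6% and 29.9% of all tested genes. Without the HHZ columns or without the P28 columns 13 genes were called higher in place of 22. Such fits keep 2 residual degrees of freedom in place of 4, and the share of all tested genes called in them was not counted.

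The hour at which leaves were taken is not given. LOC_Os01g74020, which matches the clock gene LUX of Arabidopsis, was at 509, 560 and 493 FPKM in the controls of H471, P28 and HHZ, at 1.07, 1.59 and 1.20 FPKM after 1 day and at 102, 90.4 and 84.0 FPKM after 3 days. This clock gene thus differed between the controls and both drought days by far more than between genotypes. Drought and the hour of sampling cannot be told apart in any of the comparisons between conditions.

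Of the 85 genes of cytosolic families, 79 were called lower after 1 day and 1 was called higher, with a median fitted difference of -0.77. Both subunits took part. Among genes whose family names the small subunit, 38 of 40 were called lower, with a median of -0.80, and among those of the large subunit 35 of 38 were called lower and 1 higher, with a median of -0.72. All 85 genes of cytosolic families together held 5.76%, 3.61% and 4.73% of the FPKM sum in the controls of H471, P28 and HHZ and 1.94%, 2.32% and 5.25% after 1 day, so that the full sum was higher after 1 day in HHZ. It was dominated by genes above 1000 FPKM. The 83 genes of cytosolic families without the 2 of them that exceeded 1000 FPKM held 1.79%, 1.85% and 1.66% of the FPKM sum in the controls of H471, P28 and HHZ. After 1 day they held 0.951%, 0.823% and 0.963%. The shares after 3 days were 1.27%, 1.36% and 1.47%, so the 3 conditions did not overlap.

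**Figure D1:**
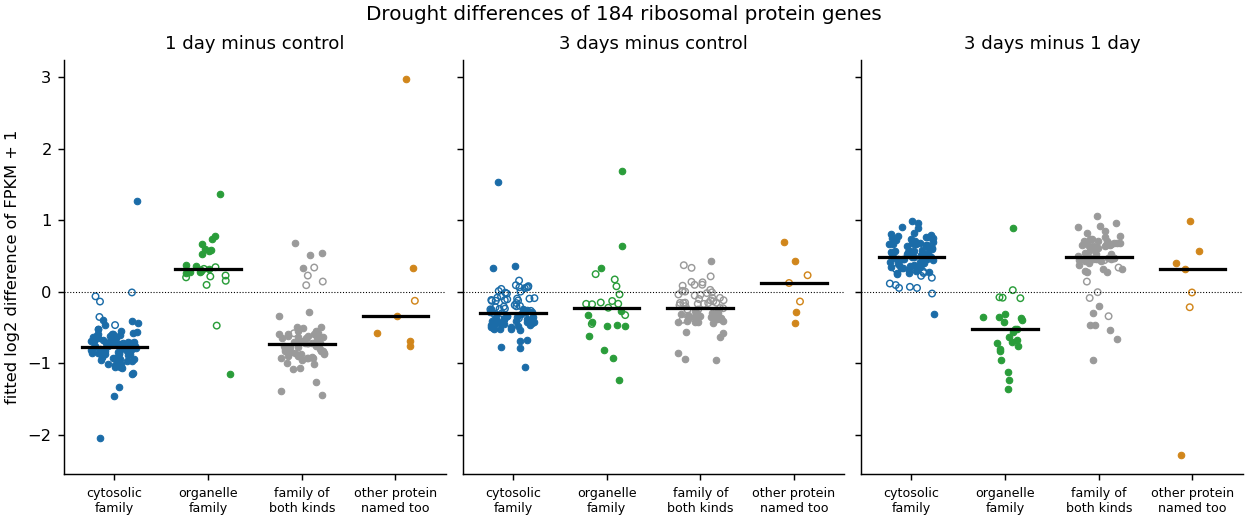
Fitted log2 differences of FPKM + 1 common to the 3 genotypes, for 1 day minus control, 3 days minus control and 3 days minus 1 day. Each point is 1 of the 184 genes, filled where limma called it at an adjusted p under 0.05 and open where it did not, and black bars are medians. On day 1 the medians are -0.77 for cytosolic families and 0.32 for organelle families, and between the 2 drought days they are 0.49 and -0.52.

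The 3 genes that match the Arabidopsis 40S protein SA, a small-subunit protein related to the laminin receptor of animals, show the course of most cytosolic genes. LOC_Os03g08440 was at 120, 117 and 115 FPKM in the controls of H471, P28 and HHZ, at 62.7, 50.6 and 55.4 FPKM after 1 day and at 93.3, 91.5 and 105 FPKM after 3 days. Levels after 1 day were thus lowest in each genotype, and those after 3 days lay between day 1 and control with no overlap. The fitted difference was -1.05 (standard error 0.09, adjusted p = 6.97e-05) after 1 day and -0.28 (standard error 0.09, adjusted p = 0.0289) after 3 days. The other members, LOC_Os03g28410 and LOC_Os07g42450, fell by 1.13 and 0.97 on the log2 scale after 1 day and by 0.40 and 0.50 after 3 days. Neither reached 50 FPKM in a day-1 column, so the choice by level favours their falls on day 1.

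The 60S acidic proteins form the stalk of the large subunit, which recruits the elongation factors. All 5 of the genes were called lower after 1 day. LOC_Os08g02340 was at 549, 634 and 521 FPKM in the controls, at 304, 326 and 314 FPKM after 1 day and at 413, 439 and 432 FPKM after 3 days, in H471, P28 and HHZ. Its fitted difference was -0.85 (standard error 0.09, adjusted p = 0.000176) after 1 day and -0.40 (standard error 0.09, adjusted p = 0.00628) after 3 days. LOC_Os05g37330, the most abundant of the 5, was at 600, 643 and 657 FPKM in the controls, at 487, 460 and 483 FPKM after 1 day and at 443, 455 and 510 FPKM after 3 days. Its fitted difference was -0.41 after 1 day and -0.43 after 3 days (standard error 0.09 each, adjusted p = 0.00599 and 0.00500), and between the 2 drought days its columns overlapped.

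LOC_Os06g16290 of the L7Ae family, whose proteins bind kinked RNA in the ribosome and in the particles that modify ribosomal RNA, had the largest fall of the 184 genes. It was at 53.0, 42.9 and 47.1 FPKM in the controls of H471, P28 and HHZ, at 13.3, 8.79 and 10.4 FPKM after 1 day and at 23.4, 22.2 and 21.4 FPKM after 3 days. It fell by 2.05 on the log2 scale (standard error 0.10, adjusted p = 5.58e-06) after 1 day and by 1.06 (standard error 0.10, adjusted p = 0.000134) after 3 days. This gene reached 50 FPKM in 1 control column only, and the choice of genes by level favours a fall in such a case. LOC_Os02g01332, a match of PGY2, which encodes a cytosolic large-subunit protein needed for leaf shape in Arabidopsis, fell by 1.46 on the log2 scale after 1 day. It reached 50 FPKM in the controls and in P28 after 3 days but in no day-1 column. The choice by level thus favours this fall too, and it is given as a description. LOC_Os04g50990 of the L11 family, which occurs in both kinds of ribosome, fell by 1.44 (standard error 0.15, adjusted p = 0.000211).

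The 1 gene of a cytosolic family called higher on day 1 was LOC_Os01g59950 of the L34e family, a family of the large subunit. It was at 16.5, 13.6 and 11.3 FPKM in the controls of H471, P28 and HHZ, at 43.6, 31.5 and 29.6 FPKM after 1 day and at 61.8, 30.3 and 37.9 FPKM after 3 days. Both drought days lay above all controls in each genotype, and the gene reached 50 FPKM only in H471 after 3 days. The fitted difference was 1.27 (standard error 0.14, adjusted p = 0.000243) after 1 day. The choice by level favours a rise after 3 days in such a case, so the fitted difference of 1.54 then is given as a description. The other 3 genes of the family, with controls between 122 and 194 FPKM, were all called lower after 1 day, by 0.85, 0.52 and 0.95 on the log2 scale, and the sum over the family was below the control in every genotype.

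Genes of organelle families moved the other way on day 1. Of the 25, 15 were called higher and 1 lower, with a median fitted difference of 0.32. All 3 columns of day 1 lay above all controls for 18 of them and below all controls for none. The count of 15 became 8 without HHZ and 7 without P28, and it was 17 without H471. Shares of all tested genes were not counted in these fits. With the columns scaled to the same FPKM sum 8 were called higher, with a median of 0.11, while the median of all tested genes moved to -0.19. Of the 6 genes whose annotation itself names an organelle ribosome, the columns of day 1 lay above all controls for 4. By subunit, 5 of 6 small-subunit genes and 7 of 14 large-subunit genes were called higher. Among those of the large subunit, named after their values were seen, were LOC_Os01g47330 (L12), at 0.60, LOC_Os03g12020 (L15), at 0.57, LOC_Os03g60100 (L17), at 0.53, LOC_Os01g44210 (L31), at 0.37, and LOC_Os02g15900 (L21), at 0.36.

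LOC_Os02g09590 matches GHS1, the plastid S21 protein of Arabidopsis, where its loss makes seedlings oversensitive to glucose. It was at 79.7, 123 and 70.4 FPKM in the controls of H471, P28 and HHZ, at 218, 249 and 220 FPKM after 1 day and at 136, 139 and 141 FPKM after 3 days. Both drought days were above all controls. It rose by 1.36 on the log2 scale (standard error 0.15, adjusted p = 0.000256) after 1 day and 0.64 (standard error 0.15, adjusted p = 0.00926) after 3 days.

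LOC_Os03g20100 matches the plastid S1 protein, which binds messenger RNA on the small subunit. It was at 153, 169 and 148 FPKM in the controls, at 231, 308 and 253 FPKM after 1 day and at 95.1, 101 and 109 FPKM after 3 days. No 2 of the 3 conditions overlapped, with day 1 highest and day 3 lowest. It rose by 0.74 on the log2 scale (standard error 0.10, adjusted p = 0.000539) after 1 day and was at -0.62 (standard error 0.10, adjusted p = 0.00147) after 3 days. LOC_Os01g69950, the large-subunit protein L27, had the same order in P28 and HHZ. It was at 83.2, 68.2 and 68.6 FPKM in the controls, 83.2, 96.7 and 94.0 FPKM after 1 day and 37.2, 36.0 and 40.9 FPKM after 3 days, and H471 was level between control and day 1. Its fitted difference was 0.32 (adjusted p = 0.0428) after 1 day and -0.93 (standard error 0.11, adjusted p = 0.000423) after 3 days.

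Across the organelle families the order with day 1 highest, control between and day 3 lowest was found in all 3 genotypes for 10 of 25 genes, for 0 of the 85 cytosolic-family genes and for 6.31% of all tested genes. The opposite order, with day 1 lowest, day 3 between and the control highest, was found in all 3 genotypes for 55 of the 85 cytosolic-family genes and 35 of the 67 genes of families of both kinds, for 0 of the 25 organelle-family genes and for 9.79% of all tested genes.

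Among the organelle genes, LOC_Os03g63950, annotated as a putative 30S protein, was the one that kept rising. It was at 273, 244 and 207 FPKM in the controls of H471, P28 and HHZ, at 429, 410 and 404 FPKM after 1 day and at 695, 819 and 807 FPKM after 3 days, with no overlap between conditions. The fitted difference was 0.79 (standard error 0.12, adjusted p = 0.00138) after 1 day and 1.68 (standard error 0.12, adjusted p = 5.06e-05) after 3 days, and the step between the 2 days was called as well (0.90, adjusted p = 0.000968). LOC_Os01g48690, chloroplast S20, rose by 0.67 (adjusted p = 0.000749) after 1 day and by 0.33 (adjusted p = 0.0207) after 3 days. LOC_Os01g17150, the plastid-specific protein PSRP5, rose by 0.28 (adjusted p = 0.0278) after 1 day and fell by 0.48 (adjusted p = 0.00294) relative to the control after 3 days.

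**Figure D2:**
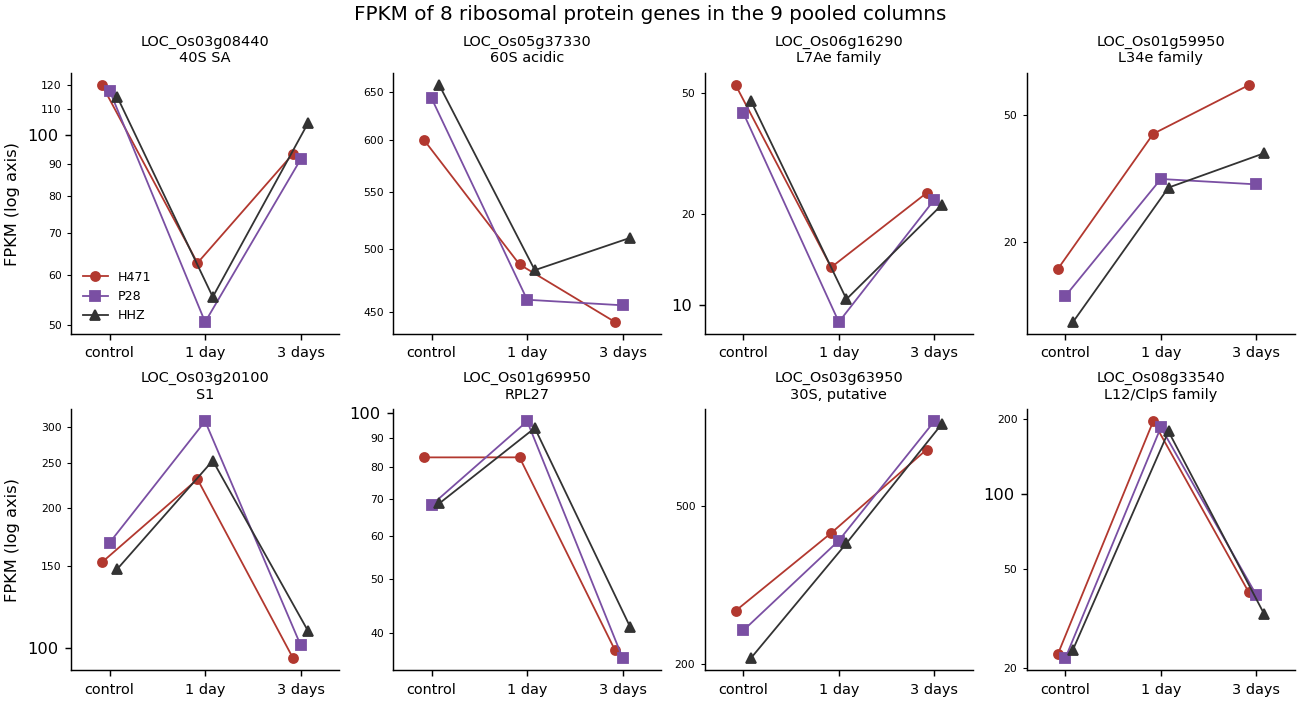
FPKM of 8 of the genes on log axes, in the control and after 1 and 3 days of drought, with 1 symbol per genotype and 1 pooled value per symbol. LOC_Os03g08440 and LOC_Os06g16290 are lowest after 1 day, LOC_Os03g20100 and LOC_Os08g33540 are highest then, and LOC_Os03g63950 reaches 695 to 819 FPKM after 3 days.

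The families whose names occur in both kinds of ribosome were mostly lower. Of their 67 genes, 57 were called lower after 1 day and 4 higher, with a median of -0.72. The 4 called higher were LOC_Os05g32220 (L1p/L10e), at 0.68, LOC_Os03g10060 (S10p/S20e), at 0.54, LOC_Os03g49710 (S13/S18), at 0.52, and LOC_Os02g04460 (L3), at 0.33 on the log2 scale, the last named after its values were seen.

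In 6 families with the same annotation, genes were called in opposite directions on day 1. In the L13 family LOC_Os01g54540 matches emb1473, the plastid L13 protein that Arabidopsis embryos need. It was at 190, 234 and 202 FPKM after 1 day, against 157, 124 and 137 FPKM in the controls of H471, P28 and HHZ, a fitted difference of 0.58 (standard error 0.12, adjusted p = 0.00516). The other 3 genes of that family fell by 0.59, 0.60 and 0.76 on the log2 scale. In the S13/S18 family LOC_Os03g58050, a match of the cytosolic protein gene PFL1 (RPS18A), fell by 0.58 (adjusted p = 0.000508). LOC_Os07g07709 and LOC_Os07g07719 of the same family fell by 0.92 each, while LOC_Os03g49710 was at 228, 313 and 293 FPKM after 1 day, against 191, 197 and 188 FPKM in the controls.

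The S10p/S20e family had the same division. LOC_Os03g10060 was at 149, 149 and 151 FPKM after 1 day, against 109, 99.9 and 98.7 FPKM in the controls (adjusted p = 0.00126), and LOC_Os06g04290 and LOC_Os10g08930 fell by 0.64 and 0.69 on the log2 scale. In the L1p/L10e family LOC_Os05g32220 was at 219, 227 and 245 FPKM after 1 day, against 153, 128 and 149 FPKM in the controls of H471, P28 and HHZ. LOC_Os02g21660 and LOC_Os08g44450 fell by 0.83 and 0.72, and LOC_Os08g44380 was at 0.14 (adjusted p = 0.105). The remaining pair of families were L34e, described above, and EF1B/S6. Copies of a gene share reads, and how the authors' estimate split them cannot be checked here, so values of single copies are uncertain. A family here is a set of genes with the same annotation, which can hold different proteins. Its sum leaves out copies below 50 FPKM in every column, so it does not remove this uncertainty. Of 53 families with at least 2 of the genes, 151 genes in all, the sum was below the control in all 3 genotypes for 47 after 1 day and above it for 0. After 3 days it was below for 40 and above for 3. No such share over all tested genes was counted, so these counts are descriptions.

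The 7 genes that also name another protein did not share a direction. LOC_Os08g33540, annotated as L12 or as the adaptor ClpS, had the largest rise of the 184 genes. The domain is shared between the ribosomal stalk protein L12 and ClpS, which delivers proteins to the Clp protease. The gene was at 22.7, 22.0 and 23.8 FPKM in the controls of H471, P28 and HHZ, at 196, 185 and 178 FPKM after 1 day and at 40.4, 39.3 and 33.1 FPKM after 3 days. Day 1 was far above all other columns in each genotype, and the gene enters the set through those columns alone. The choice by level thus favours a rise on day 1, and the fitted rise of 2.98 on the log2 scale is given as a description. After 3 days the gene was higher than in the control by 0.69 (standard error 0.08, adjusted p = 0.000483).

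LOC_Os02g32030 matches LOS1, the elongation factor eEF2 that moves the ribosome along messenger RNA. It was at 266, 272 and 285 FPKM in the controls, 181, 180 and 191 FPKM after 1 day and 369, 330 and 409 FPKM after 3 days. It fell by 0.57 (adjusted p = 0.000788) after 1 day and rose by 0.42 (adjusted p = 0.00361) after 3 days, each time with no overlap with the controls. The EF1B/S6 annotation names both an exchange factor of elongation factor 1 and the ribosomal protein S6. Of the 4 genes that carry it, 2 were called higher and 2 lower after 1 day. LOC_Os03g62630 rose by 0.34, while LOC_Os07g42300 and LOC_Os03g29260 fell by 0.34 and 0.69 on the log2 scale. The remaining gene, LOC_Os12g37610, was also called higher, and it matches a plastid S6 protein described below.

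After 3 days of drought fewer of the genes stood apart from the control. limma called 9 of the 184 higher and 85 lower, against 27.0% of all tested genes called higher and 30.1% called lower, and the median was -0.26 against -0.03 for all tested genes. Among the 169 genes with a mean of at least 50, 7 were called higher and 75 lower. The columns of day 3 lay below all controls for 103 genes and above for 14, against 31.8% and 28.9% of all tested genes. The count of genes called lower was 32 without H471, 55 without P28 and 67 without HHZ. Fits of 2 genotypes keep 2 residual degrees of freedom in place of 4. The share of all tested genes called in them was not counted, so the smaller counts cannot be read as particular to these genes.

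The fitted medians of both kinds of ribosome were below 0 on day 3, for organelle families mainly through H471 and P28. Of the 85 genes of cytosolic families 45 were called lower and 3 higher, with a median of -0.30, and of the 25 of organelle families 10 were called lower and 3 higher, with a median of -0.22. The largest fitted fall among organelle families was that of LOC_Os11g34940, the plastid-specific protein PSRP6, at -1.23 (standard error 0.41, adjusted p = 0.0374), followed by L27. The call for LOC_Os11g34940 was lost without any 1 of the genotypes, and without H471 its fitted difference was -0.52. LOC_Os02g43600 (L19), named after its values were seen, was at -0.81 (adjusted p = 0.00150). Without H471, 18 cytosolic-family genes and 5 organelle-family genes were called lower. In HHZ alone 11 organelle-family genes were above 0 and 14 below. The families of both kinds had 28 of 67 lower and 1 higher. This 1 gene was LOC_Os12g42180 of the L14p/L23e family, at 105, 119 and 102 FPKM after 3 days, against 78.8, 79.7 and 82.3 FPKM in the controls of H471, P28 and HHZ (fitted difference 0.43, standard error 0.07, adjusted p = 0.00212). LOC_Os02g56960 and LOC_Os10g32920 of the same family fell by 0.24 and 0.34 on the log2 scale. In the S8e family of the small subunit LOC_Os07g47580 rose by 0.35 (adjusted p = 0.00286) and LOC_Os02g28810 fell by 0.33 (adjusted p = 0.0184).

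Between the 2 drought days cytosolic families were on balance higher on the later day and organelle families lower. limma called 132 of the 184 genes higher after 3 days than after 1 day and 29 lower, against 25.3% and 24.4% of all tested genes. Among cytosolic families 73 were called higher and 1 lower, with a median of 0.49, and among organelle families 1 was called higher and 20 lower, with a median of -0.52. Without P28, 17 of the 184 were called lower, and the share of all tested genes in that fit was not counted. The comparison of the 2 drought days shares its day-1 columns with the comparison of day 1 and control. The largest step up was that of LOC_Os07g23244 of the L23/L15e family, at 58.0, 24.0 and 51.3 FPKM after 3 days, against 21.7, 14.6 and 23.1 FPKM after 1 day (fitted difference 1.06). Its day-1 columns were all below 50 FPKM, so the choice by level favours this step, and it is given as a description. The largest step down was that of LOC_Os08g33540, at -2.28. This gene is among the 184 only through its day-1 columns, so the difference is given as a description.

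**Figure D3:**
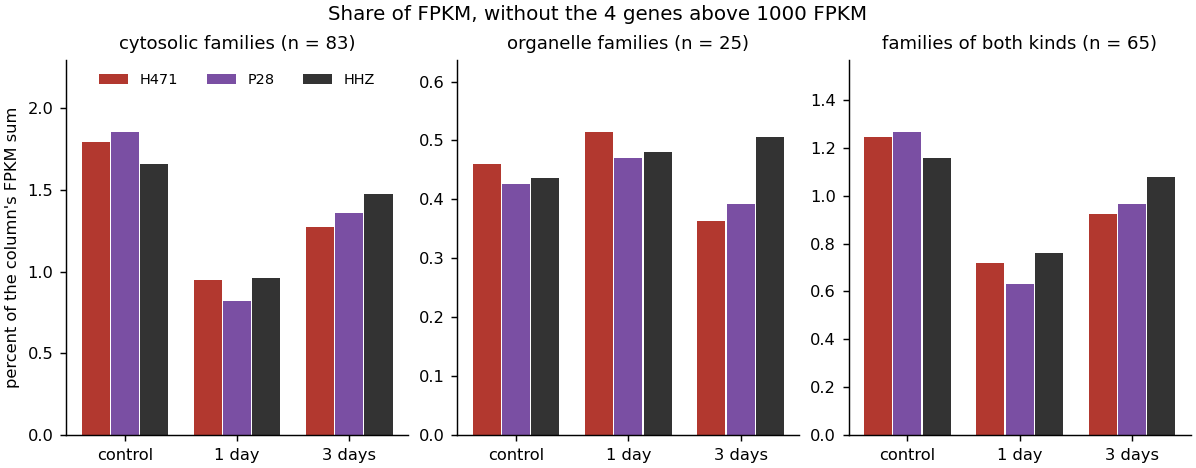
Share of each column's FPKM sum, in percent, held by the genes of cytosolic families, organelle families and families of both kinds, without the 4 genes that exceeded 1000 FPKM. Each bar is 1 pooled column, and the panels have different axes. Cytosolic families hold 1.66% to 1.85% in the controls and 0.823% to 0.963% after 1 day, while organelle families hold 0.426% to 0.461% and 0.470% to 0.514%.

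The organelle families held 0.461%, 0.426% and 0.437% of the FPKM sum in the controls of H471, P28 and HHZ, 0.514%, 0.470% and 0.481% after 1 day and 0.363%, 0.393% and 0.505% after 3 days. HHZ thus had its highest share after 3 days, whereas H471 and P28 had their lowest then. In HHZ the summed FPKM of these genes was 4517 after 1 day and 4277 after 3 days. The sum of the whole column was 939252 and 846264, so the share rose while the genes' own sum did not. A part of the HHZ sum after 3 days was 1 gene, chosen after its values were seen. LOC_Os10g21196 (S16) was at 685 FPKM in HHZ after 3 days, at 361 FPKM in H471 and at 257 FPKM in P28. Over the 9 columns it ranged between 214 and 937 FPKM with no order that the conditions share, and it was not called in any drought comparison.

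Of the 184, 4 exceeded 1000 FPKM in any column: LOC_Os02g27769 (S27), LOC_Os04g32710 (a zinc-binding ribosomal protein), LOC_Os06g08320 (L39) and LOC_Os11g41610 (S14p/S29e). Proteins of these families are among the smallest of the ribosome. LOC_Os02g27769 was at 27258, 11515 and 23219 FPKM in the controls of H471, P28 and HHZ, at 7851, 13083 and 34087 FPKM after 1 day and at 24378, 16477 and 9735 FPKM after 3 days. The genotypes thus ran in different directions, and the conditions overlapped. LOC_Os06g08320 was at 5665, 2821 and 2643 FPKM in the controls, at 1591, 1627 and 6192 FPKM after 1 day and at 3776, 2762 and 1868 FPKM after 3 days. Here too HHZ was highest after 1 day, where H471 was lowest. LOC_Os04g32710 likewise was highest after 1 day in HHZ and lowest then in H471 and P28. LOC_Os11g41610 differed from these, with the lowest level after 1 day and the highest after 3 days in all 3 genotypes, and it was called higher after 3 days than after 1 day (0.91, adjusted p = 0.0220). None of the 4 was called between a drought day and the control. Their standard errors were 0.26 to 0.68 on day 1, while the median over the other 180 genes was 0.09.

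These 4 genes made up a large part of the summed level. All 184 genes together held 9.11%, 6.07% and 7.33% of the FPKM sum in the controls of H471, P28 and HHZ, 3.61%, 3.96% and 7.67% after 1 day and 6.87%, 5.70% and 5.32% after 3 days. In this full sum day 1 was lowest in H471 and P28 and highest in HHZ. The 4 held 1.32% to 5.48%. Without them the other 180 held 3.63%, 3.67% and 3.39% in the controls of H471, P28 and HHZ, 2.29%, 2.03% and 2.32% after 1 day and 2.68%, 2.84% and 3.21% after 3 days. In this sum, taken after the values were seen, the conditions did not overlap, with day 1 lowest in each genotype.

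The genotypes shared the direction on day 1 and differed in its size. The median difference in log2(FPKM + 1) over the 184 genes was -0.71 in H471, -0.83 in P28 and -0.58 in HHZ, against -0.01, -0.01 and 0.00 for all tested genes. For cytosolic families it was -0.78 in H471, -0.93 in P28 and -0.63 in HHZ. By a size rule of at least 1 in log2, 19 of the 184 genes were lower after 1 day in H471, 54 in P28 and 12 in HHZ, against 13.4%, 14.9% and 13.1% of all tested genes. By the same rule 3 were higher in H471, 3 in P28 and 4 in HHZ, against 13.2%, 12.2% and 12.5%. Of the 141 genes called lower, the fall was largest in P28 for 115, in H471 for 22 and in HHZ for 4. Among all 6336 genes called lower, 41.7% had their largest fall in P28. Each genotype has 1 column for each condition, so this difference between genotypes was not tested, and a shift of 1 column moves all of its genes together.

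**Figure D4:**
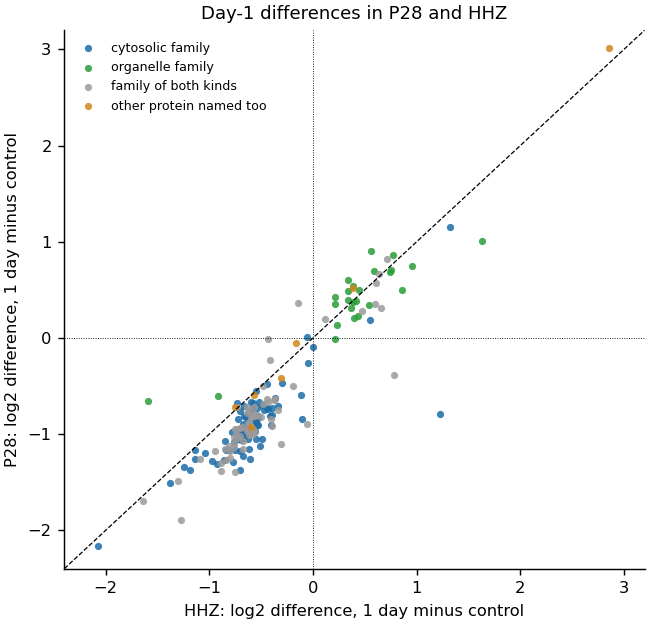
Differences in log2(FPKM + 1) between 1 day of drought and the control in P28 (vertical axis) and HHZ (horizontal axis), 1 point for each of the 184 genes, with the line of equal differences dashed. Most genes of cytosolic families and of families of both kinds lie below the line, with medians over cytosolic families of -0.93 in P28 and -0.63 in HHZ.

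After 3 days the order of the genotypes was another. The median over the 184 genes was -0.32 in H471, -0.29 in P28 and -0.14 in HHZ, and by the size rule 6 genes were lower in H471, 1 in P28 and 2 in HHZ, against 13.6%, 13.5% and 13.3% of all tested genes. In each genotype 2 genes were higher, against 10.9%, 9.09% and 10.3%. For organelle families the median was -0.50 in H471, -0.22 in P28 and 0.00 in HHZ. These differences between genotypes were not tested either.

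Few of the 184 genes were called between genotypes across all conditions, and few of all tested genes were either. Between H471 and HHZ limma called 0 of the 184 higher and 0 lower, against 0.18% and 0.0438% of all tested genes. Of the 184, 3 had an unadjusted p under 0.05, against 6.74% of all tested genes. Between P28 and HHZ limma called 2 higher and 4 lower, against 3.64% and 3.0% of all tested genes. Of these 6, LOC_Os12g32380 reached 50 FPKM in P28 alone, and LOC_Os07g33860, LOC_Os12g37610 and LOC_Os11g34940 reached it in no P28 column, so the choice by level itself favoured their difference. Between H471 and P28 it called 4 higher and 3 lower, against 3.01% and 3.71%. Here the 3 conditions serve as replicates. Under control conditions the median difference over the 184 genes was 0.11 between H471 and HHZ and 0.09 between P28 and HHZ. The medians were below 0 under drought, at -0.04 for H471 and -0.16 for P28 after 1 day and -0.08 and -0.09 after 3 days. These medians were not tested. By the size rule, H471 had 1 gene higher than HHZ and 0 lower in the control, against 1.31% and 1.15% of all tested genes. After 1 day these counts were 1 and 5, against 1.79% and 1.62%, and after 3 days 2 and 2, against 1.93% and 1.47%. P28 had 1 gene higher than HHZ and 4 lower in the control, against 4.17% and 3.09%. The counts for P28 were 1 and 7 after 1 day, against 3.33% and 3.43%, and 2 and 6 after 3 days, against 3.34% and 2.9%.

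LOC_Os12g32380 of the S14p/S29e family was at 222, 118 and 215 FPKM in P28, against 31.9, 30.7 and 42.7 FPKM in HHZ, in the control and after 1 and 3 days. H471 was near HHZ at 43.8, 29.8 and 45.2 FPKM. It is among the 184 genes only through its P28 columns, so the fitted difference of 2.33 between P28 and HHZ is given as a description. LOC_Os07g33860, a zinc-binding ribosomal protein, went the other way, at 27.9, 12.5 and 23.6 FPKM in P28, against 91.9, 74.2 and 89.8 FPKM in HHZ, a fitted difference of -2.02.

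LOC_Os12g37610 matches RFC3, a plastid S6 protein that in Arabidopsis affects fatty acid composition. It was at 19.8, 26.9 and 26.6 FPKM in P28, against 54.8, 63.5 and 58.3 FPKM in HHZ (fitted difference -1.24). LOC_Os02g01332 (PGY2) was at 99.9, 34.4 and 75.4 FPKM in P28, against 57.4, 21.5 and 36.6 FPKM in HHZ (fitted difference 0.82, standard error 0.12, adjusted p = 0.0102). LOC_Os05g30530 of the S4 (RPS4A) family, named after its values were seen, was lower in P28 by 0.47 on the log2 scale (adjusted p = 0.00682). Each of these genes differed in the same direction in all 3 conditions.

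LOC_Os11g34940 matches PSRP6, a plastid-specific protein of the large subunit with no counterpart in bacteria. It was at 156, 40.2 and 23.8 FPKM in H471, 33.3, 21.6 and 19.2 FPKM in P28 and 231, 122 and 191 FPKM in HHZ, in the control and after 1 and 3 days. The level of H471 was between those of both parents in every condition and nearer to P28 than to HHZ after 1 and 3 days. The fitted difference was -2.82 between P28 and HHZ and -1.70 (standard error 0.41, adjusted p = 0.338) between H471 and HHZ. It was also the 1 gene of an organelle family called lower on day 1, at -1.15 (adjusted p = 0.0467), a call that was lost without HHZ and without P28. LOC_Os03g34040 of the S5 family was at 314, 197 and 171 FPKM in H471 and 186, 238 and 180 FPKM in P28, against 325, 492 and 366 FPKM in HHZ, with adjusted p = 0.486 for H471 and 0.0615 for P28 against HHZ.

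**Figure D5:**
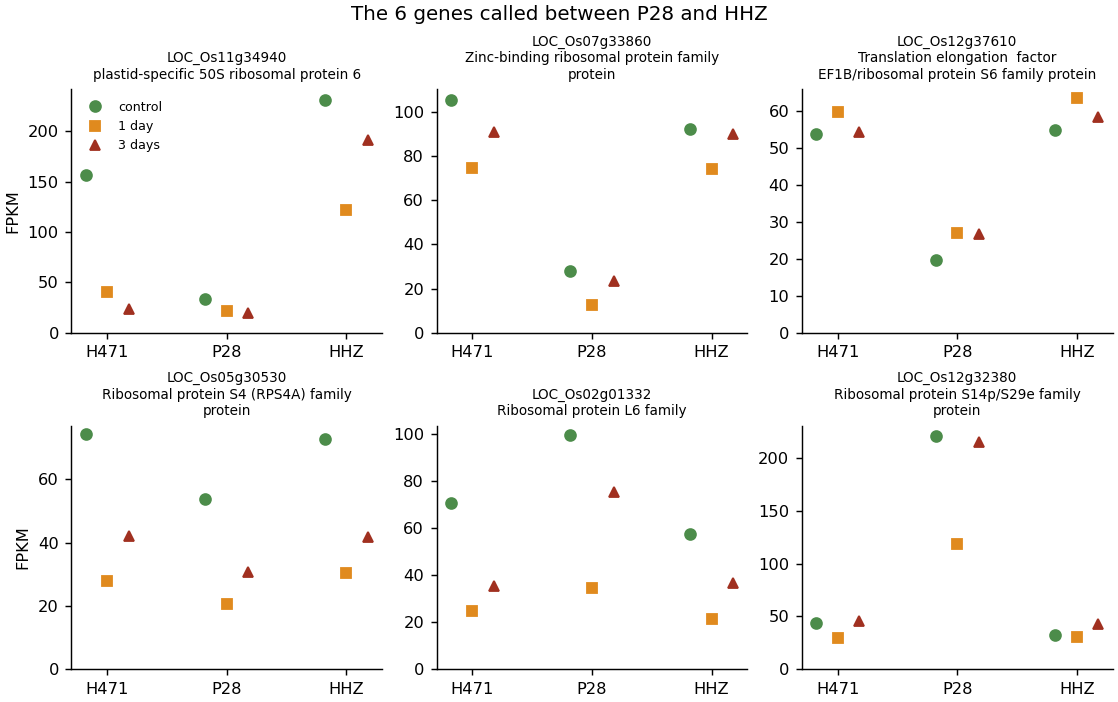
FPKM of the 6 genes called between P28 and HHZ, by genotype, with 1 symbol for each of the 3 conditions and 1 pooled value per symbol. LOC_Os12g32380 is at 118 to 222 FPKM in P28 and at 30.7 to 42.7 FPKM in HHZ, and LOC_Os11g34940 shows H471 between the parents.

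Other genes of the translation machinery were called in both directions on day 1. For the lists that follow, the shares of all tested genes are those given above: 27.4% higher and 30.8% lower after 1 day, 27.0% and 30.1% after 3 days, and 25.3% and 24.4% between the drought days. Of 106 ribosomal protein genes below 50 FPKM in every column that could be tested, 8 were called higher and 63 lower after 1 day, with a median of -0.45, and 15 (14.2%) higher and 24 (22.6%) lower after 3 days, both below the shares of all tested genes. Among 32 tested genes of ribosome biogenesis 4 were called higher and 15 lower after 1 day, with a median of -0.28. After 3 days 8 (25.0%) were called higher, near the share of all tested genes, and 3 (9.38%) lower, and between the 2 days 19 were higher and 1 lower. LOC_Os05g08360, a match of fibrillarin, which methylates ribosomal RNA, was at 47.4, 42.0 and 44.5 FPKM in the controls of H471, P28 and HHZ, 20.6, 14.6 and 17.4 FPKM after 1 day and 45.3, 37.1 and 44.2 FPKM after 3 days. It fell by 1.31 (adjusted p = 1.49e-05) after 1 day, and its partner in the same particle, NOP56 (LOC_Os03g22880), fell by 1.46 (adjusted p = 1.58e-05). The largest rises of this list at a mean of at least 20 FPKM were in 2 genes annotated as TLD-domain nucleolar proteins. LOC_Os06g11790 rose by 0.74 (adjusted p = 0.000181) and LOC_Os12g06100 by 0.49 (adjusted p = 0.00375) after 1 day.

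Of 48 tested genes whose annotation names an initiation factor, 10 (20.8%) were called higher and 21 (43.8%) lower after 1 day. LOC_Os03g08450 (eIF3K) fell by 0.93 and LOC_Os03g18510 (eIF2 subunit 1) by 0.75 on the log2 scale. LOC_Os07g34589 of the SUI1 family rose by 0.78 and LOC_Os02g55120 (initiation factor 3) by 0.64. Of 32 tested genes whose annotation names an elongation factor, 8 (25.0%) were called higher, near the share of all tested genes, and 17 (53.1%) lower. LOC_Os03g63410 of the elongation factor Tu family fell by 1.68 (adjusted p = 1.22e-05) after 1 day. LOC_Os12g32240 (eIF5A), which helps the ribosome over difficult peptide bonds, fell by 1.41 (adjusted p = 1.44e-05) after 1 day and rose by 0.62 (adjusted p = 0.000792) after 3 days. LOC_Os04g45490, a match of SCO1, the elongation factor G of chloroplasts, was at 152, 216 and 178 FPKM after 1 day, against 90.5, 86.8 and 87.7 FPKM in the controls, and at 32.1, 36.0 and 42.4 FPKM after 3 days. It rose by 1.02 (adjusted p = 0.000448) and then fell by 1.25 relative to the control (adjusted p = 0.000202). This is the order seen in 10 of the 25 organelle-family genes. LOC_Os07g47510, which rose by 1.38, is a rubber elongation factor in name and has no known part in translation.

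In these leaf samples fewer cells of a type and less RNA per cell cannot be told apart. The 4 genes of the small subunit of rubisco, which mark mesophyll, summed to 5552 to 7359 FPKM in the controls, 6532 to 11706 FPKM after 1 day and 419 to 976 FPKM after 3 days. Of 3 listed light-harvesting genes 1 was at 0 in every column, and their sum was 1967 to 2249 FPKM in the controls, 6604 to 7813 FPKM after 1 day and 2184 to 3178 FPKM after 3 days. Histone genes summed to 2392 to 3146 FPKM in the controls, 4532 to 4960 FPKM after 1 day and 5072 to 5220 FPKM after 3 days, and neither of 2 B-type cyclin genes reached 1 FPKM. The part of such shifts in the results above was not tested.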

How the data were processed

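Leaf RNA of 3 genotypes in 3 conditions was measured in 18 libraries. Per the authors' methods, ribosomal RNA was removed, paired ends were sequenced, adaptors and low-quality bases were trimmed with an in-house script, TopHat aligned the reads to the MSU rice genome, and Cufflinks with bias and multi-read correction gave the deposited FPKM, 1 column for the 2 libraries of a genotype and condition. The sources used here give no tool versions. The study's text gives read numbers for each library, which are not used here. The deposited file gives no counts behind a value, so no counting interval could be given. Below 0.3 FPKM, the most common log2 ratio of a column to the HHZ control was between -0.275 and 0.025, but this peak held 4.55% to 7.71% of such genes.

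Genes that reached 1 FPKM in any column (20568) entered the tests, 1 was added and log2 taken, which understates differences of low genes. limma with a trend on mean level was fitted to the 9 columns with terms for genotype and condition (4 residual degrees of freedom), with Benjamini-Hochberg adjustment over all kept genes and a threshold of 0.05. Differences are drought minus control or the first-named genotype minus the second. The fit was also run on simulated data with noise drawn independently for each gene and column. Such data hold no shift of a whole column, so that run says nothing about such shifts.

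The genes described, the lists and the rule for named genes were chosen with earlier results of these data known: the 3 highest by annotated class, the 3 largest rises and falls for each drought comparison and the 2 largest of each for P28 and H471 against HHZ, genes at the threshold, families called both ways, and from other lists the 2 largest rises and falls on day 1 with a mean of at least 20 FPKM. The table of reference genes does not carry the identifiers used here, so no sequence, position or promoter motif is given, and the planned promoter search was not run. Alternatives to pseudocount, filter, scaling, trend, threshold, membership and columns fitted were run 1 at a time. Fits were made with limma 3.58.1 under R 4.3.3, and summaries with pandas 2.3.3 and numpy 2.4.6 under Python 3.11.15, with plots by matplotlib 3.10.9.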

Additional observations from a re-analysis of the deposited data

Results flagged for a closer look

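For 2 of the genes above 1000 FPKM the genotypes or conditions moved in opposite directions past the size rule, and the difference was not tested, since each value is 1 pooled column. The L39 gene LOC_Os06g08320 differed between 1 day of drought and control by -1.83 in H471, -0.79 in P28 and 1.23 in HHZ on the log2 scale. In H471 relative to HHZ it was at 1.10 in controls, -1.96 on day 1 and 1.02 on day 3. The S27 gene LOC_Os02g27769 was in H471 relative to HHZ at 0.23 in controls, -2.12 on day 1 and 1.32 on day 3. Among all tested genes 76 (0.37%) had such opposite directions between genotypes on day 1, and 97 (0.472%) had them between conditions for H471 against HHZ.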

How the results depend on the processing

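No paired analysis was possible because each column pools replicates 1 and 2. The counts of genes lower on day 1 (141) and higher between the drought days (132) stayed within 1.5 times under every alternative run, and no named gene called in a comparison changed sign. With columns scaled to the same FPKM sum, the median of all tested genes on day 1 moved to -0.19. Under this scaling 13 genes were higher on day 1 (4188 of all tested genes, against 8042 lower). Between the days 18 were lower (4138 of all tested genes, against 6209 higher). The organelle families had 8 of 25 higher on day 1, with a median of 0.11. At an adjusted p under 0.01, 14 were higher on day 1, 47 lower on day 3 and 18 lower between the days. At this threshold 1 was higher in P28 than in HHZ and 1 lower in H471 than in P28. Shares of all tested genes were not counted at 0.01. With genes taken at 20 FPKM, 16 were higher on day 3. With a mean of at least 50, 2 were lower in P28 than in HHZ and 1 was higher in H471 than in P28. At 100 FPKM, P28 had 1 gene higher than HHZ and 2 lower, and 1 was higher in H471 than in P28.

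Leaving out 1 genotype gave 13 to 25 genes higher on day 1 and 17 to 21 lower between the days. On day 3 it gave 32 to 67 lower. Leaving out 1 condition gave P28 1 to 2 genes higher than HHZ and 2 to 4 lower, and 2 higher and 1 lower in H471 than in P28. Such fits keep 2 residual degrees of freedom, and shares of all tested genes called in them were not counted.

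A size rule of 1.5-fold in place of 1 in log2 gave 123 genes past it in H471, 148 in P28 and 105 in HHZ on day 1, and 27, 29 and 13 on day 3. For H471 against HHZ it gave 3 in the control and 9 on day 3, and for P28 against HHZ 9 in the control. Equal FPKM sums gave 62, 113 and 26 on day 1 and 5 in P28 on day 3. Shares of all tested genes past the rule were not counted under these settings, so the counts have no background beside them. The mean share of the FPKM sum was 7.50% in the controls, 5.08% on day 1 and 5.96% on day 3, and without the 10 most abundant genes 9.43% in the controls and 7.89% on day 3. Without the 4 genes above 1000 FPKM, a setting chosen after seeing the data, it was 3.56%, 2.21% and 2.91%. Family sums below the control and the count of largest falls in P28 (115 to 132 under the scalings, also chosen afterwards) kept within 1.5 times.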
